A study of Mus musculus with 4 samples.

Results

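In B cells of mouse cervical lymph nodes, 87 of 23418 gene symbols had 0 reads in both libraries of the strain labelled NOD.B10 and at least 0.5 CPM (reads of the gene per 1000000 reads of the library) in both libraries of the control strain labelled BL/10. These 87 genes are the subject here. They were chosen by that difference between the strains, so their levels are given as a description and no test of them is reported. A further 8 genes met the same values (Il1rl2, Klrk1, Kit, Mcpt4, Cpa3, Rag1, Dntt and Arpp21) and were left out by the rule. There were 2 libraries of each strain, and the 4 totals lay between 19328803 and 29372751 reads. BL/10 is a control strain of the C57BL/10 type. NOD.B10 mice have the autoimmune-prone NOD background with the H2 region of C57BL/10, and develop a disease of the salivary and lacrimal glands like that of Sjögren patients. The labels used here give no treatment, age or number of animals per library, so the spread between libraries may be technical. All p-values below come from the quasi-likelihood test of edgeR across 13075 genes, adjusted by the Benjamini-Hochberg method, and apply only to genes that the rule did not choose.

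A sort for B cells from a lymph node can retain RNA of other cells, such as T cells, natural killer cells, phagocytes, red cell precursors or gland tissue. Inbred strains also differ in many gene families, in which whole copies can be lost, gained or left without a working promoter. A table of reads per gene holds neither cells nor alleles. In such bulk samples, fewer cells of a type and less RNA per cell cannot be told apart.

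The labelled cell type was checked against its defining genes. The 12 B cell markers examined, among them Ms4a1, Cd79a and Pax5, summed to between 10710 and 12510 CPM in each of the 4 libraries. Of these 12, only Fcer2a was called, higher in NOD.B10 by 0.57 on the log2 scale (adjusted p = 0.00287), although up to 5 were called under the other settings run. Among 120 tested markers of other cell types that are not among the 87 genes, 60 (50%) were called lower in NOD.B10 and 2 higher. Over all 13075 genes tested, 8.63% were called lower and 6.55% higher.

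Absence of reads in both NOD.B10 libraries was rare among expressed genes. Of 12252 genes at 0.5 CPM or more in both BL/10 libraries, 95 (0.775%) had 0 reads in both NOD.B10 libraries, including the 8 exceptions. The opposite pattern was met by 15 of 11854 genes (0.127%). Between the 2 BL/10 libraries, 19 genes stood at 0.5 CPM or more in the first and at 0 reads in the second, and 10 the other way. Between the NOD.B10 libraries these numbers were 38 and 26. All 87 genes passed the filter on low counts, and the same contrast that chose them also called all 87 lower, beside 8.63% of all tested genes, from which nothing is read here.

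Most of the 87 genes were expressed at a low level in BL/10. Their mean over the 2 BL/10 libraries ran from 0.561 to 21.4 CPM with a median of 1.14 CPM, and 38 of them reached 1 CPM in both libraries. Together they held 5170 and 5807 reads in BL/10 libraries 1 and 2. A count of 0 in both NOD.B10 libraries allows a level of up to 0.0669 CPM (3 reads over the group, counting error only). The genes were therefore at least 8.38-fold to 320-fold lower in NOD.B10, with a median bound of 17.0-fold, and 5 bounds exceeded 100-fold. These bounds grow with the level in BL/10 and do not rank how completely a gene was off. All of them fall 1.76-fold when the first NOD.B10 library is left out and 2.32-fold when the second is, because fewer reads then stand behind the limit.

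**Figure D1:**
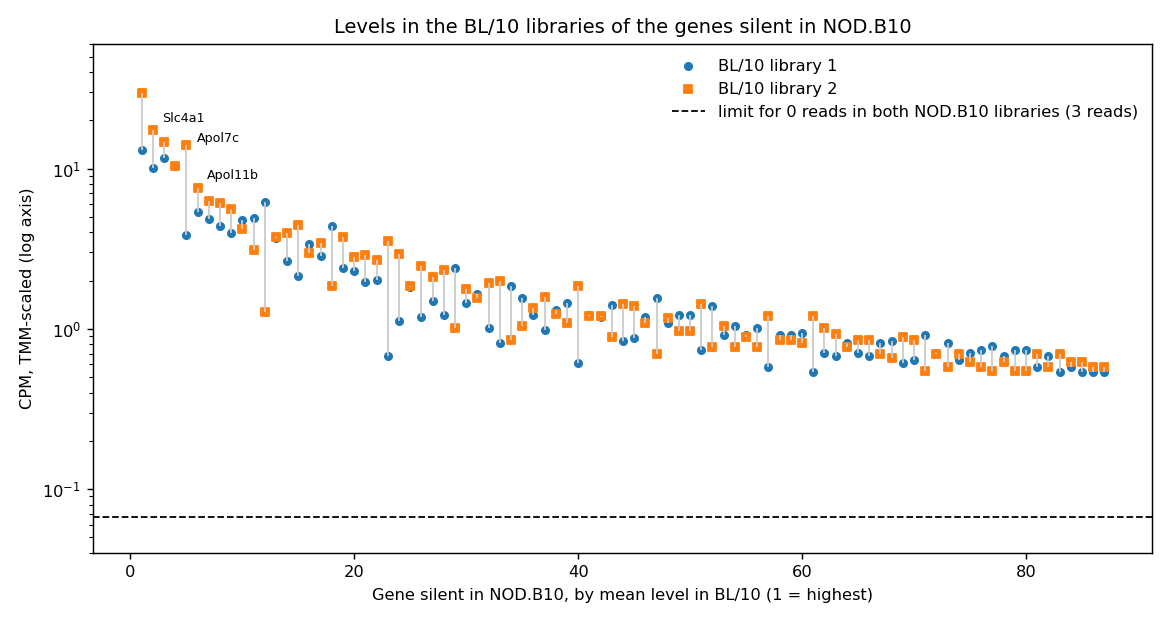
CPM over TMM-scaled library sizes (log axis) of the 87 genes in BL/10 library 1 (circles) and library 2 (squares), in order of their mean, with the limit that 0 reads in both NOD.B10 libraries allow (dashed line, 0.0669 CPM). Every gene lies above the limit in both libraries, and most of them lie near 1 CPM.

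At the threshold, Auts2 and Lrp12 were included with 22 and 14 reads each, and Opcml with 27 and 14 reads. Gm5547, with 17 and 13 reads and a lower CPM of 0.497, was just outside, as were 1110032F04Rik and Cyp2f2 at 0.477. Just beyond the other limit lay 23 genes with 1 read over both NOD.B10 libraries. The highest was the noncoding 2610035D17Rik, with 723 and 717 reads in BL/10 and 1 read in NOD.B10. Next came Reln, which encodes the secreted protein reelin, with 423 and 113 reads in BL/10, and Trem1, a receptor of phagocytes, with 91 and 60.

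Of the 87 genes, 82 are annotated as protein coding, 2 as long noncoding RNAs and 2 as pseudogenes, and 1, BC021614, was not matched to RefSeq. None lies on chromosome 12, 18 or 19. Chromosome 9 carried 12 of the 86 placed genes (14.0%, beside 5.6% of all tested genes) and chromosome 11 carried 10 (11.6%, beside 8.54%). Chromosome 17, which holds the H2 region, carried 1, Treml4 (1.16%, beside 5.3% of all tested genes). For sorting below by what the genes are known for, each was placed in 1 role group after the list was known, so the sizes of these groups are descriptive.

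The lymphocyte group held 14 genes known from T cells, natural killer cells or innate lymphocytes, with 1228 and 1090 reads in the 2 BL/10 libraries. Cd96 (chromosome 16, 46035652 to 46120248), a surface receptor of T and natural killer cells, had 346 and 378 reads in BL/10, or 13.2 ± 2.1 CPM (SD, n = 2), and was at least 197-fold lower in NOD.B10. Trat1 (chromosome 16, 48730774 to 48810547), an adaptor of the T cell receptor complex, had 109 and 97 reads and was at least 55.6-fold lower. Sh2d1a, which encodes the SLAM adaptor SAP, had 71 and 96 reads. Klrd1, which encodes the CD94 chain of natural killer receptors, had 58 and 75 reads. In these 4 genes the BL/10 libraries were alike, within 1.55-fold of each other.

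Transcription factors, ligands and receptors made up the rest of this group. Ikzf4, which encodes Eos of regulatory T cells, had 78 and 103 reads. Rora, a nuclear receptor of innate lymphocytes, had 25 and 37 reads. The TNF family ligands were Tnfsf8 (CD30 ligand) with 84 and 88 reads, Tnfsf11 (RANKL) with 21 and 26, and Fasl, the death ligand of cytotoxic cells, with 16 and 16. Ephb6, an Eph receptor without kinase activity, had 146 and 80 reads. The chemokine receptor gene Ccr8 had 42 and 23 reads, the scavenger receptor gene 5830411N06Rik 30 and 20, and the orphan receptor gene Gpr83 19 and 18.

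Other T cell markers were lower in NOD.B10 as well but were not at 0. Apart from Trat1, 20 of 21 tested T cell markers were called lower, with a median log2 fold change of −5.06 beside −0.0032 over all genes. All 21 had reads in NOD.B10, and Thy1 did not pass (adjusted p = 0.0606). They summed to 812 and 964 CPM in the BL/10 libraries, and to 243 and 226 CPM in those of NOD.B10. Most of the NOD.B10 sum came from Cd2 and Lck, with means of 159 and 42.1 CPM there. These 2 genes were only 1.29-fold and 1.66-fold lower, so the sum understates the fall of most of the other markers. Themis, a thymocyte selection gene, was 205-fold lower with 4 reads over both NOD.B10 libraries, and Cd3g, a chain of the CD3 complex, 158-fold lower with 4 reads. The CD8 beta chain gene Cd8b1 was 198-fold lower with 5 reads. These 3 were the largest folds on the T cell and CD8 T cell lists, and most other markers fell less. The bound of Cd96, at 197-fold, is a minimum and cannot be ranked among these measured folds. Of 8 tested natural killer cell markers 6 were called lower (3 without the second BL/10 library), and of 9 helper and regulatory T cell markers 8 were (5 without that library). The natural killer list without Klrd1 summed to 41.2 and 62.7 CPM in BL/10 and 17.6 and 13.4 CPM in NOD.B10, with 10 of its genes at 0 in NOD.B10 and 3 of those at 0 in every library. Their part in the counts of the 14 lymphocyte genes was not tested.

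**Figure D2:**
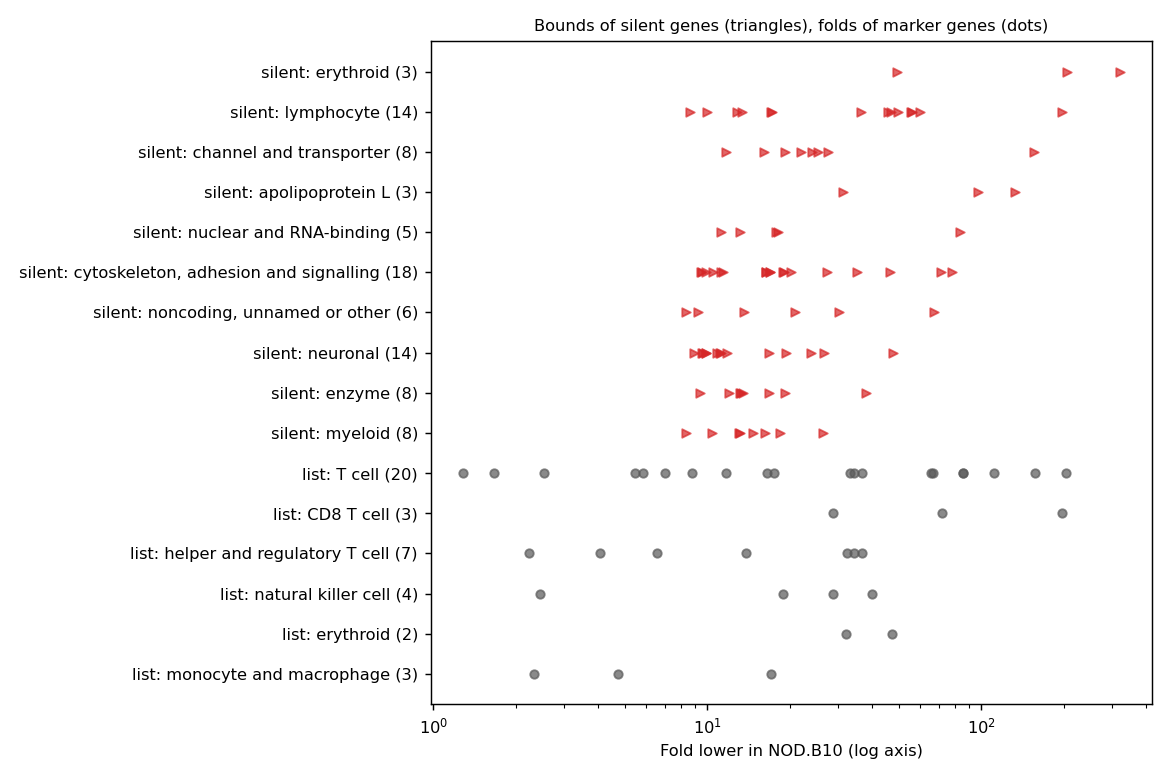
Fold by which genes were lower in NOD.B10 (log axis), as lower bounds for the 87 silent genes by role group (triangles) and as measured folds for marker genes that are not among them, were called lower and kept over 3 reads in NOD.B10 (dots). The bounds reach 206-fold for Slc4a1 and 197-fold for Cd96, among others, and the T cell markers reach 205-fold for Themis.

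The erythroid group held 3 genes, with 748 and 1335 reads in the BL/10 libraries. Slc4a1 (chromosome 11, 102348820 to 102365281), the anion exchanger band 3 of the red cell membrane, had 299 and 452 reads in BL/10, or 13.8 ± 5.25 CPM (SD, n = 2), and was at least 206-fold lower in NOD.B10. All 3 genes were higher in the second BL/10 library, by 1.73-fold to 2.28-fold.

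Erythroid markers outside the 87 genes were not all at 0 in NOD.B10. Alas2, the first enzyme of haem synthesis in red cells, had 5167 and 7104 reads in BL/10 and 188 and 109 in NOD.B10. It was 32.1-fold lower (adjusted p = 0.048). That call was lost with no filter (adjusted p = 0.102), with the replicate number as a block (0.2) and when the first or the second BL/10 library was left out (0.278 and 0.25). The haemoglobin genes Hba-a1 and Hba-a2 were at 0 in every library. How reads that match several places were counted is not given, so these zeros do not show that haemoglobin RNA was absent. The listed beta globin genes Hbb-bt and Hbb-bs have no counts under these symbols. Klf1, a transcription factor of the red cell lineage, stood at 10 and 31 reads in BL/10 and 5 and 33 in NOD.B10. The summed level of the erythroid list, without those of its genes that are among the 87, was 178 and 286 CPM in BL/10 and 11.4 and 6.34 CPM in NOD.B10, and its part in the counts of the 3 erythroid genes was not tested.

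Compared per length, as CPM per 1000 bases of the lengths in the table, the order of the genes changed. Among the genes named here, Cd96 was highest at 6.04, followed by Trat1 at 5.44, Apol7c at 4.35, Sh2d1a at 3.73, Apol11b and S100a8 at 3.15 each and Slc4a1 at 3.03. From Cd96 down to Slc4a1, each gene overlapped the next in this order and did not differ from it beyond the spread of the libraries. Ryr2, at 10.4 CPM, has a length of 16813 bases and came to 0.619 per 1000 bases.

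Only in the apolipoprotein L array did 3 of the 87 genes lie within 500 kb of each other. These genes encode intracellular lipid-binding proteins, and in the mouse they form a tandem array on chromosome 15 with many near-identical copies. Apol7c (77524852 to 77533335) had 114 and 360 reads in BL/10, the pseudogene Gm8221 (77618968 to 77627398) had 20 and 91, and Apol11b (77633951 to 77643286) had 159 and 196. All 3 had 0 reads in NOD.B10 and were at least 133-fold, 31.4-fold and 96.9-fold lower. Apol7c and Gm8221 differed 3.62-fold and 5.22-fold between the BL/10 libraries, and Apol11b differed 1.41-fold. Without the second BL/10 library the bound of Apol7c was 57.8-fold and that of Gm8221 10.1-fold, and without the first they were 209-fold and 52.7-fold.

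The copies around them did not all follow. Apol7e, which lies next to Apol11b and was not chosen by the rule, had 63 and 95 reads in BL/10 and 3 and 2 in NOD.B10 and differed by −4.63 ± 0.708 (log2, SE, adjusted p = 0.000497). Apol10b, between Apol7c and Gm8221, had 38 and 17 reads in BL/10 and 6 and 0 in NOD.B10 and was not called (adjusted p = 0.107), though it was without the first NOD.B10 library and with no filter. Apol9b and Apol8 beyond Apol7e were not called either, with 47 and 14 reads over the BL/10 libraries and 21 and 24 over the NOD.B10 libraries. The other 6 copies in the table, Apol6, Apol7a, Apol7b, Apol9a, Apol10a and Apol11a, had 0 to 14 reads over both BL/10 libraries.

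**Figure D3:**
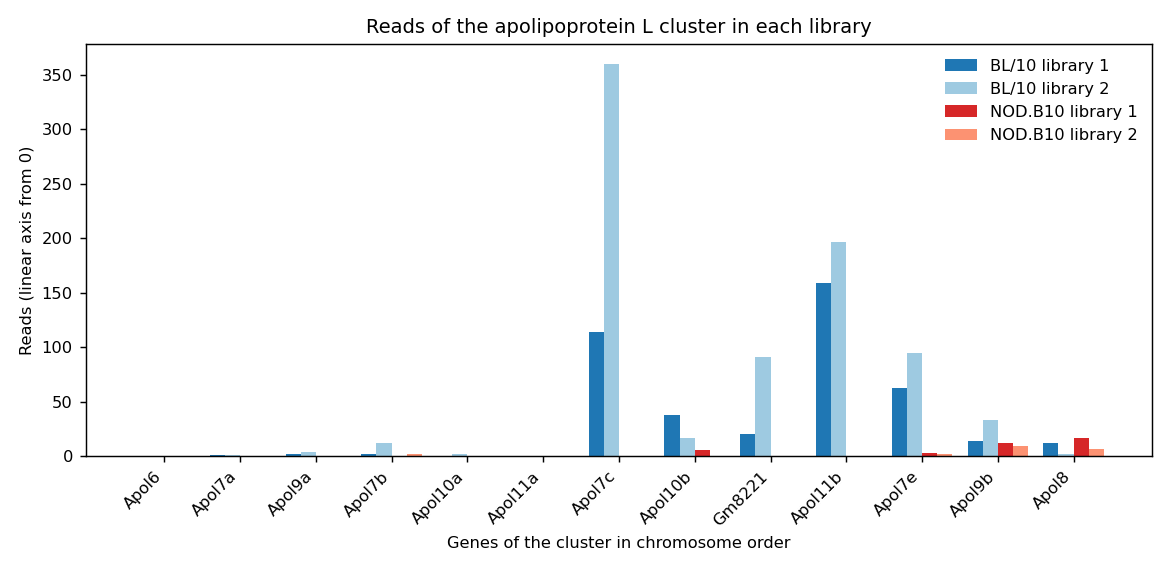
Reads (linear axis) of the genes of the apolipoprotein L cluster on chromosome 15 in each of the 4 libraries, in chromosome order. Apol7c, Gm8221 and Apol11b have reads only in the BL/10 libraries, whereas Apol9b and Apol8 at the end of the array have reads in both strains.

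Because reads of such copies can be exchanged between them, the overlap of their transcripts was measured as the share of 50-base stretches that also occur in a transcript of another gene (GENCODE M21). This share was 25.6% for Apol7c and 45.1% for Gm8221, which share most with each other, and 15.2% for Apol11b, which shares most with Apol11a. The counts of Apol7c and Gm8221 are therefore uncertain as separate values. Of the 85 genes with transcripts in GENCODE, 50 shared none and 76 under 5%. The others at or above 5% were Sh2d1a (25.6%, with the overlapping Tenm1), Miat (24.2%), Nrn1 (20.2%, with Fars2), Cbr2 (12.1%), 2010015L04Rik (6.46%) and Tmie (6.41%, with Als2cl).

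Apol7c and Apol11b both carry a match to the interferon-stimulated response element (GAAA, any 2 bases, GAAA, read on either strand) within the 250 bases before the start site. Of the 60 genes with a promoter window in RefSeq (GRCm38.p6), Apol7c and Apol11b were the only 2 with this match (3.33%), beside 3.04% of all 27025 windows. They are shown with the promoters of Cd96 and Trat1, the T cell genes highest per length, both of which hold the RUNX word TGTGGT. Each line runs 5′ to 3′ on the strand of the gene and ends at the base before the start. Capitals mark the matches to the 7 words searched, which for the apolipoprotein L genes include the response element near the end of the line, as 2 overlapping matches in Apol7c. The Trat1 window ends at the start site of the promoter table, which lies inside the longest extent of the gene.
Apol7c, chr15:77533316-77533565, minus strand: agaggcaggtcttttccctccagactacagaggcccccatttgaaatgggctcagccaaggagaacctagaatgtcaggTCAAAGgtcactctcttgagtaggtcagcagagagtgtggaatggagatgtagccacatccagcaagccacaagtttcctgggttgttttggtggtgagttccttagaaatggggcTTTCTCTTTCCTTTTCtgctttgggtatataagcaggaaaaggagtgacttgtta
Apol11b, chr15:77643287-77643536, minus strand: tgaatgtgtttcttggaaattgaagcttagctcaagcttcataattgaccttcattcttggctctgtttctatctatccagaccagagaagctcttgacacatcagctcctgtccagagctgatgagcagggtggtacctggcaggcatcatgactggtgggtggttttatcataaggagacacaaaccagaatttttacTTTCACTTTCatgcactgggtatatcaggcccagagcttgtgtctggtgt
Cd96, chr16:46120249-46120498, minus strand: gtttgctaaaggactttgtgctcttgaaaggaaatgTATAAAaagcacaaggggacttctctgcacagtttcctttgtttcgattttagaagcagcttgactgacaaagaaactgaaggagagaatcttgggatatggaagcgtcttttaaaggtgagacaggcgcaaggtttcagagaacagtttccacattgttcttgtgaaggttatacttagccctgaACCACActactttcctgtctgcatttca
Trat1, chr16:48772063-48772312, minus strand: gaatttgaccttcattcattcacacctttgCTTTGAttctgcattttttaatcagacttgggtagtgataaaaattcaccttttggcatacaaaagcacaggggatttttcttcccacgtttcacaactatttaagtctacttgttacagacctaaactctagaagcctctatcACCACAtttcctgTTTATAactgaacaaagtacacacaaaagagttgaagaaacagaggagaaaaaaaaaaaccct

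Over the whole window of 300 bases (250 before and 50 after the start), the other words were AGATAA for GATA factors (3.33% of the 60 windows, 11.4% of all), TGTGGT for RUNX (10.0% and 16.9%), CTTTGA for TCF and LEF (10.0% and 16.2%), CCGGAA for ETS (6.67% and 15.2%), CAGCTG as an E-box (26.7% and 16.1%) and TATAAA (15% and 14.2%). Both strands were searched, and the matches are letters in this window only. The 60 windows held a median of 9 CpG pairs in the 250 bases before the start, beside 6 over all windows. They ranged from 0 in Apol7c, Apol11b and Gpr35 to 37 in Arhgap20.

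The myeloid group held 8 genes at low level, with 186 and 255 reads in the BL/10 libraries. Ccl6 and Ccl9, chemokines of macrophages, are neighbours on chromosome 11 (83572917 to 83593087) and had 36 and 60 reads and 27 and 22 reads. Ccl5 close by, a chemokine of T and natural killer cells, was not called (adjusted p = 0.181) with 113 and 401 reads in BL/10 and 3 and 27 in NOD.B10, but was called with DESeq2, with non-robust dispersion, with the replicate block and when NOD.B10 library 2 or any single BL/10 library was left out. S100a8, a calcium-binding protein of neutrophils, had 18 and 48 reads. Zfp366, a nuclear factor of dendritic cells, had 16 and 31, and the receptor gene Gpr35 had 22 and 37. The lipoxygenase gene Alox5 had 24 and 15 reads, the inflammasome gene Mefv 16 and 15, and Treml4, a receptor of phagocytes, 27 and 27. The neutrophil list without S100a8 summed to 4.12 and 7.52 CPM in BL/10 and 2.80 and 1.45 CPM in NOD.B10, with 1 of 5 tested genes called lower (2 or 3 under 4 alternatives). The monocyte and macrophage list summed to 127 and 134 CPM in BL/10 and to 54.0 and 35.6 CPM in NOD.B10, with 3 of 13 tested genes called lower (5 with no filter and 7 without the first NOD.B10 library). Apoe made up most of the monocyte and macrophage sum in BL/10, with means of 80.9 CPM there and 17.1 CPM in NOD.B10. The macrophage markers C1qa, C1qb and C1qc were 1.01-fold, 0.987-fold and 1.26-fold as high in BL/10 as in NOD.B10 and were not called. The plasmacytoid dendritic cell list stood at 1101 and 1211 CPM in BL/10 and at 1133 and 1073 CPM in NOD.B10. Most of that sum came from Spib, with means of 789 CPM (BL/10) and 761 CPM (NOD.B10), and Tcf4, at 294 CPM in each strain. Neither was called. Of the 8 tested genes of this list, 3 were called lower (Siglech, Klk1 and Bst2), 0 higher and 5 were not called. The summed level of the conventional dendritic cell list was 25.2 and 70.0 CPM in the BL/10 libraries and 14.1 and 14.0 CPM in NOD.B10, with 2 of 9 tested genes called lower (4 with DESeq2, with non-robust dispersion and, of 10 tested, without the first BL/10 library). The second BL/10 library was the higher for the conventional dendritic cell list, as in Apol7c, Gm8221 and S100a8. Most of that rise came from Fscn1 (280 and 844 reads), Cacnb3 (68 and 244) and Ccl22 (127 and 265). Xcr1 of the same list went the other way, with 30 and 18 reads. The part of the cell types of these lists in the counts of the 8 genes and of the apolipoprotein L genes was not tested.

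Channels and transporters numbered 8. Ryr2 (chromosome 13, 11553099 to 12106945), the calcium release channel of heart muscle, had 309 and 268 reads in BL/10, or 10.4 ± 0.0338 CPM (SD, n = 2), and was at least 156-fold lower in NOD.B10. Its libraries differed less than those of any other gene above 5 CPM. The amino acid transporter gene Slc6a19 had 43 and 46 reads, and the glutamate receptor gene Gria3 had 36 and 35. The potassium channel genes Kcnh6, Kcnh2 and Kcnj2 had 71 and 26, 41 and 20, and 21 and 22 reads. Abca6, a lipid transporter of the ABC family, had 30 and 50 reads.

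Genes best known from neurons numbered 14 and had 477 and 370 reads in BL/10. Hcrtr2, the orexin receptor 2 gene, was highest with 100 and 77 reads. The collapsin response mediator genes Crmp1 and Dpysl5 had 49 and 40 reads and 19 and 22 reads, and the neurite outgrowth gene Nrn1 had 44 and 54. The adhesion genes Ncam1 and Opcml had 46 and 27 reads and 27 and 14 reads. Others were Ndn with 46 and 18 reads, the opioid receptor gene Oprd1 with 18 and 23, the stathmin gene Stmn2 with 20 and 16, and Tagln3, Sez6l, Lingo4, Auts2 and N28178 with 14 to 24 reads per library. Of the separate neural marker list, 2 of 4 tested genes were called lower, and its sum was 130 and 115 CPM in BL/10 and 106 and 108 CPM in NOD.B10. Its part in the counts of the 14 genes was not tested.

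The cytoskeleton, adhesion and signalling group was the largest, with 18 genes and 865 and 785 reads. Btbd11, a BTB domain gene (chromosome 10, 85384971 to 85660292), had 129 and 157 reads and was at least 78.0-fold lower. Vill (chromosome 9, 119052729 to 119071525), which encodes a villin-like actin-binding protein, had 117 and 145 reads and was at least 71.5-fold lower. The receptor phosphatase gene Ptprf had 129 and 48 reads, and Tmie, a gene of the hair cell transduction complex, had 60 and 69. The death-associated kinase gene Dapk1 had 55 and 22 reads, the GTPase regulators Arhgap32 and Arhgap20 had 43 and 28 reads and 36 and 25 reads, the keratin gene Krt7 had 35 and 28, and the growth factor receptor gene Fgfr1 had 21 and 16. The remaining 9, Pdlim4, Paqr9, Tmem100, Lypd6b, Cav2, Mras, Rhobtb3, Kctd12b and Lrp12, had 14 to 64 reads per library. The epithelial and salivary gland list, to which Krt7 does not belong, summed to 412 and 248 CPM in BL/10 and 17.7 and 50.9 CPM in NOD.B10. Of its 7 tested genes 2 were called lower, and 1 to 5 under the alternatives, and its part in the count of Krt7 was not tested.

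Enzymes, nuclear proteins and noncoding genes completed the set. Ace, the angiotensin-converting enzyme, had 68 and 72 reads and was at least 38.0-fold lower. The other enzymes, Mboat1, Steap4, B4galnt4, Cbr2, Rnase12, Gucy1a3 and Ckmt1, had 15 to 41 reads per library. Gucy1a3 encodes a subunit of soluble guanylate cyclase, and the gene of its partner, Gucy1b3, lay below the threshold with 12 and 5 reads in BL/10 and also had 0 in NOD.B10. Among nuclear proteins, 2610019F03Rik (Tdrp, chromosome 8, 13952008 to 13975478) had 143 and 163 reads and was at least 83.3-fold lower, and Gtf2ird1, Mafa, Zfp111 and Rbm44 had 17 to 36 reads per library. The cilium gene 2010015L04Rik (Cfap74, chromosome 4, 155392099 to 155466823) had 141 and 109 reads and was at least 67.2-fold lower. The noncoding D630041G03Rik had 33 and 76 reads and Miat 31 and 20. BC021614 had 24 and 51 reads, Gm4956 16 and 15, and Bpifb3 16 and 18.

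The spread between the 2 BL/10 libraries is given as a description, since the rule used both. Of the 87, 15 (17.2%) lay more than 2-fold apart between the 2 BL/10 libraries, beside 407 of 5803 other tested genes (7.01%) in the same range of levels. Most of the 87 lie at the low end of that range, where counting error is widest, so these shares are not matched for level and do not show that the 87 genes varied more. The ratio of the second over the first library ran from 0.207 for a lymphocyte gene to 5.22 for Gm8221. Its median was 3.62 for the apolipoprotein L genes, 2.1 for the erythroid genes and 1.53 for the myeloid genes, beside 1.18 for the lymphocyte genes and 0.901 for the neuronal genes. The apolipoprotein L genes ranged from 1.41 to 5.22 and the neuronal genes from 0.449 to 1.47, so these groups barely overlapped, while the lymphocyte genes, at 0.207 to 1.7, overlapped most others. No test was made.

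**Figure D4:**
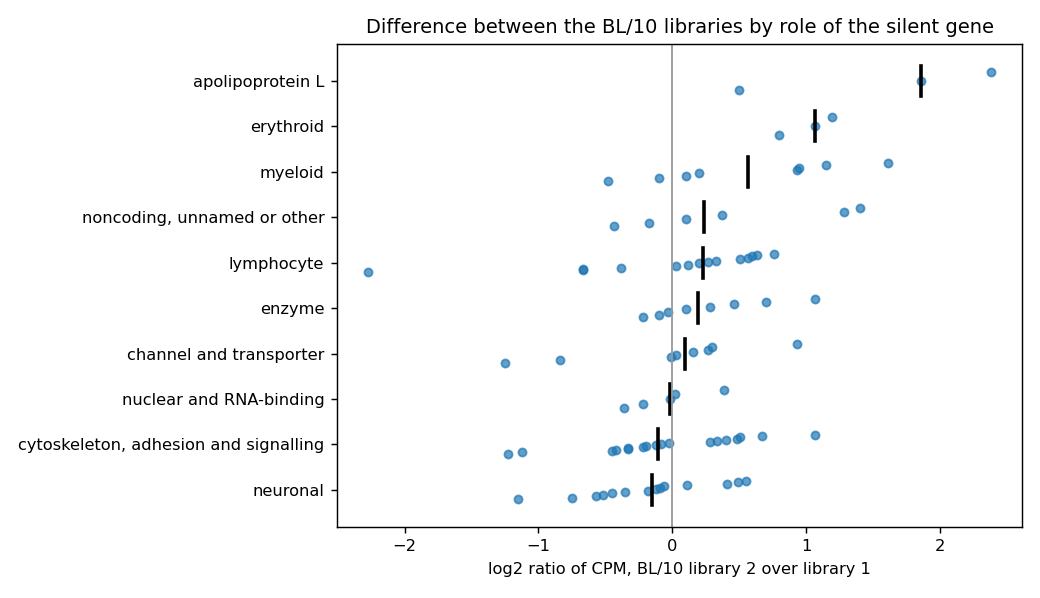
Log2 ratio of CPM in BL/10 library 2 over library 1 for each of the 87 genes (points) by role group, with the group's median (bar). The 3 apolipoprotein L and the 3 erythroid genes all lie above 0, and the points range from −2.27 to 2.38.

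Genes next to the 87 were not chosen by the rule and could be tested. The nearest tested gene on each side of a silent gene, within 500 kb, gave 130 genes, of which 21 (16.2%) were called lower in NOD.B10 and 8 (6.15%) higher, beside 8.63% and 6.55% over all genes. The other 101 were not called, and the median log2 fold change of the neighbours was −0.0863. Among all 193 tested genes within 100 kb, 29 (15%) were lower and 7 (3.63%) higher. The neighbours share loci with the silent genes, and no test of the difference between the 2 shares was made.

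At 5 of the highest silent genes a nearest tested neighbour was not called. Plcxd2, 25.2 kb from Cd96, had means of 28.9 CPM (BL/10) and 29.7 CPM (NOD.B10, adjusted p = 0.931). Dzip3, 114 kb from Trat1, stood at 26.4 and 31.9 CPM (adjusted p = 0.265). Ubtf, 25.2 kb from Slc4a1, stood at 216 CPM in each strain (adjusted p = 0.999). Mtr, 74.4 kb from Ryr2, stood at 78.7 and 93.9 CPM (adjusted p = 0.175), and Fbxo25, 9.13 kb from 2610019F03Rik, at 14.1 and 11.4 CPM (adjusted p = 0.411). These differences did not pass the test, which does not show that the levels are equal.

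In several loci the neighbour was lower as well. Als2cl, whose gene body ends 47 bases from Tmie, had 617 and 590 reads in BL/10 and 8 and 0 in NOD.B10 and differed by −6.87 ± 0.649 (log2, SE, adjusted p = 0.000682). D630041G03Rik overlaps a gene on each side. Eps8l1 had 226 and 445 reads in BL/10 and 5 and 3 in NOD.B10, with −6.07 ± 0.576 (log2, SE, adjusted p = 4.65e-05). Rdh13 on the other side was not called, at 14.5 and 15.4 CPM (adjusted p = 0.838). The strand setting of the counting is not given in the sources used here, so reads from the stretches that D630041G03Rik shares with Eps8l1 or Rdh13 cannot be told apart. Tmie and Als2cl do not overlap as gene bodies, and 6.41% of the 50-base stretches of Tmie transcripts also occur in other genes. Trem1, 17.3 kb from Treml4, had a log2 fold change of −6.64 (adjusted p = 0.000183), while Treml2 on the other side of Treml4 fell by 0.53 (adjusted p = 0.00406) from 269.6 to 186 CPM. Ramp1, a receptor activity modifier gene 9.02 kb from Rbm44, had 86 and 102 reads in BL/10 and 2 and 1 in NOD.B10 (adjusted p = 0.000112). Folr4 beside Gpr83, a gene of regulatory T cells, S100a6 beside S100a8 and the receptor kinase gene Adrbk2 beside Sez6l fell by 3.81, 3.35 and 3.14 on the log2 scale. Kif1a beside Gpr35 was also called lower (adjusted p = 0.0177), but not without the first BL/10 library (adjusted p = 0.305).

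**Figure D5:**
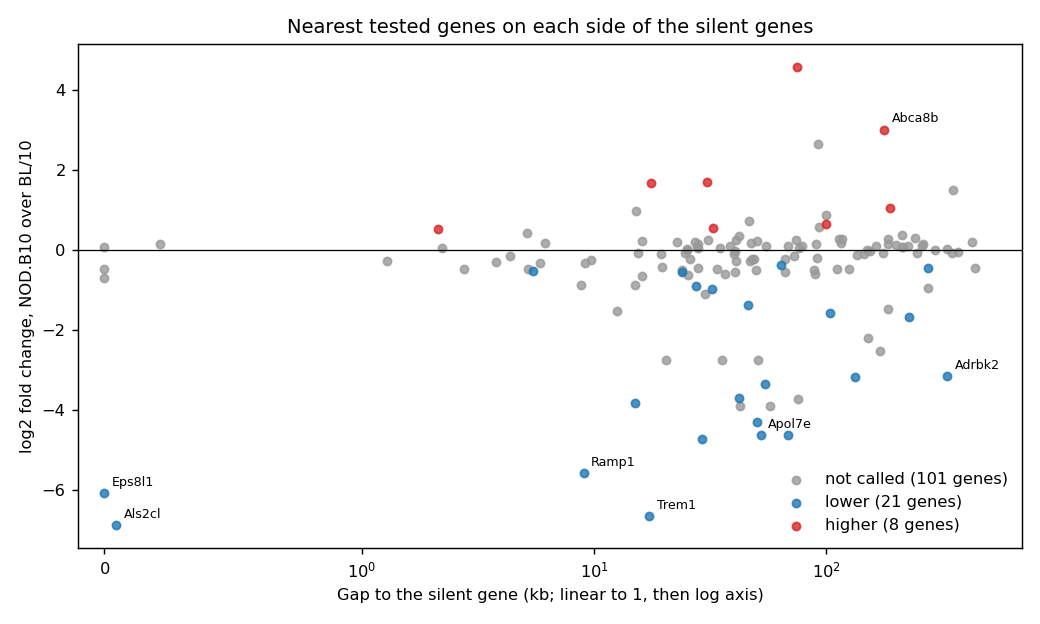
Log2 fold change, NOD.B10 over BL/10, of the nearest tested gene on each side of each silent gene, against the gap between the gene bodies (kb, linear to 1 and then a log axis), with calls in colour. A gene that neighbours several silent genes appears at each gap, 21 genes were lower and 8 higher, and most points lie near 0.

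At Abca6 and 2010015L04Rik, neighbours were higher in NOD.B10. Abca6 lies between Abca5, 17.6 kb away, and Abca8b, 178 kb away. Abca5 rose from 10.4 ± 1.62 to 33.5 ± 1.87 CPM (SD, n = 2, log2 fold change 1.69, edgeR adjusted p = 2.34e-05), and Abca8b rose from 1.03 ± 0.640 to 8.50 ± 1.76 CPM (3.02, edgeR adjusted p = 0.0004). Abca6 itself had 30 and 50 reads in BL/10 and 0 in NOD.B10, so within this transporter array the strains differed in both directions. Prkcz, a protein kinase gene 30.7 kb from 2010015L04Rik, rose from 9.46 to 30.7 CPM (adjusted p = 0.000187). Slc12a7, next to Slc6a19, went the other way and fell by 0.97 (adjusted p = 0.00141).

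In the zinc finger array on chromosome 7, Zfp111 was silent, Zfp93 had 57 and 43 reads in BL/10 and 4 and 3 in NOD.B10 (adjusted p = 0.00516), and Zfp235 and Zfp109 on either side of Zfp111 were not called, although Zfp235 was called lower without the second NOD.B10 library. Zfp112 of the same array had 42 and 31 reads in BL/10 and 5 and 8 in NOD.B10 and was called lower (log2 fold change −2.17, adjusted p = 0.0475). That call was lost when any single library was left out (adjusted p = 0.0882 to 0.291), with DESeq2 (0.11), limma-voom (0.0679), upper-quartile factors (0.0501) and the replicate block (0.0979).

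Besides the apolipoprotein L array, 5 pairs of the 87 genes lay within 500 kb of each other, of which 4 are described. Ccl9 and Ccl6 are 9.25 kb apart, and Ace and Kcnh6 on chromosome 11 are 18.1 kb apart with 68 and 72 and 71 and 26 reads. No tested gene lies between the genes of these 2 pairs. Miat and Sez6l on chromosome 5 are 190 kb apart with 5 tested genes between them, and Tagln3 and Cd96 on chromosome 16 are 311 kb apart with 2 tested genes between them.

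The gene lists, with 355 entries in 29 lists, held 10 of the 87 genes. Of the 43 interferon-stimulated genes listed, 38 were among the symbols counted and none of these was among the 87. Even so, 28 of the 36 tested were called lower in NOD.B10, with a median log2 fold change of −1.59. The lists for plasma cells, germinal centre cells, marginal zone and B-1 cells, age-associated B cells, and megakaryocytes and platelets held none of the 87 either. The same was true of the lists for monocytes and macrophages, conventional and plasmacytoid dendritic cells, and CD8 T cells. It also held for mast cells and basophils and for epithelium and salivary gland, among others. For mast cells and basophils this does not show that their genes kept reads in NOD.B10. Of the 12 genes on that list, 10 had 0 reads in NOD.B10, and 3 of those had 0 in every library. Kit, Mcpt4 and Cpa3, which met the same values but were left out by the rule, are not on that list.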

How the data were processed

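RNA of B cells from cervical lymph nodes was sequenced in 4 libraries, 2 per strain. The authors deposited whole-number read counts per gene with a gene length column. Per the submitters' processing notes, the tools were HISAT2 2.1.0, SAMtools 1.3 and featureCounts of Subread 1.6.5 with mm10, and the treatment of strand and of reads that match several places is not given in the sources used here. All libraries were counted on a single reference build, and the files hold no alignments, so whether NOD alleles lost reads there was not tested.

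The rule used CPM over column totals. Other CPM values use library sizes scaled by edgeR 4.0.16 (TMM, R 4.3.3), and means are shown with SD over 2 libraries. Genes kept by filterByExpr (minimum count 10, total 15) were tested with the quasi-likelihood test of edgeR, NOD.B10 against BL/10, at an adjusted p of 0.05 (Benjamini-Hochberg). P-values reflect the spread between these libraries only. A count of 0 was read as at most 3 reads over the group, and such limits cover counting error only. DESeq2 1.42.0 and limma 3.58.1 (voom), other scalings and filters, other thresholds of the rule, a replicate block and leaving out each library were alternatives. On simulated counts of 12888 genes, the test recovered 69.4% of genes changed 2-fold and 98% of those changed 4-fold, with 4.7% false calls. The simulation gave every gene the same fixed dispersion, which was not estimated from these libraries. These shares therefore may not hold for the real counts.

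Some genes are not reported here. The rule for named genes took the 25 silent genes with the highest lower BL/10 CPM, those on a gene list or within 500 kb of another, their families within 1 Mb, the nearest tested neighbours of the first and the paired genes, and the genes at the thresholds. Other silent genes, the list genes Themis, Cd3g, Cd8b1, Thy1, Fcer2a, Alas2, Klf1, Hba-a1 and Hba-a2, and the neighbours Eps8l1, Rdh13, Ramp1, Folr4, S100a6 and Kif1a were named after their values were seen. So were the list genes Cd2, Lck, Spib, Tcf4, Siglech, Klk1, Bst2, Apoe, C1qa, C1qb, C1qc, Bpifa2, Fscn1, Cacnb3, Ccl22 and Xcr1. The genes and lists were chosen with earlier results of these data known. Coordinates, biotypes and promoter windows are from RefSeq (GRCm38.p6), in which 82 of the 87 symbols matched directly and 4 through a synonym.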

Additional observations from a re-analysis of the deposited data

How the results depend on the processing

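The rule gave 162 genes at a threshold of 0.25 CPM, 38 at 1 CPM, 160 with up to 3 NOD.B10 reads, and 145 to 171 when any library was left out. B cell markers called numbered 4 with no filter, 3 with DESeq2, 2 each with limma-voom and non-robust dispersion, and 2 to 5 when a library was left out. Neighbours called higher numbered 5 to 7 and markers of other cell types called higher 1 to 3 without a library, and the latter were 1 with a stricter filter.

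The deviations of same-numbered libraries from their group means were not correlated (r = −0.017 over 13075 genes). This does not exclude a shared preparation of same-numbered libraries, which the labels do not give. With the replicate block, 2 B cell markers were called, and 19 neighbours and 58 markers were called lower.

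Some differences near 0 changed sign. When a library was left out, that of Apol9b ran from −1.40 to 0.0226, that of Plcxd2 from −0.143 to 0.232, that of Rdh13 from −0.00585 to 0.178 and that of Ubtf from −0.162 to 0.174. Leaving out NOD.B10 library 1 gave −0.113 for Plcxd2 and 0.0875 for Ubtf. That of Ubtf was 0.00449 with upper-quartile factors, 0.0104 with limma-voom and 0.00533 with the block. The cause of these changes was not tested.

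With 2 libraries per strain, a gene at 0 in NOD.B10 cannot be told from one below 0.0669 CPM.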
